A study of Mus musculus with 6 samples.

Results

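The amino acid transporters described here were the 60 genes, of 24532 in the table, whose symbols place them in the solute carrier families Slc1 (7 genes), Slc3 (2), Slc6 (18), Slc7 (15), Slc36 (4), Slc38 (11) and Slc43 (3). They were chosen by symbol alone, so a few members carry other substrates, such as monoamines, creatine or nucleobases. Bulk mRNA was sequenced from kidneys and ureters of mice at postnatal day (PN) 1. The groups were 2 Ahnak KO kidney libraries, 2 WT kidney libraries, 1 Ahnak KO ureter library and 1 WT ureter library. In the KO mice exon 5 of Ahnak, which encodes a large scaffold protein, had been disrupted in the whole animal, and the WT mice carried the intact gene. The methods give 2 to 4 kidneys or ureters taken for RNA without a number per library, and call the replicates biological without saying whether the libraries of a group came from separate mice, so p-values measure only the spread between these samples, which may be technical.

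The newborn proximal tubule takes filtered amino acids back from the urine in a pair of steps. Transporters on the apical, urine-facing brush border pull them into the cell against their gradient, and transporters on the basolateral side pass them on to the blood. Several work as pairs in which a heavy subunit (Slc3a1 or Slc3a2) carries a light subunit of the Slc7 family to the membrane. Every growing cell also uses a general set of uptake transporters, and some of those genes are known targets of ATF4, the transcription factor of the amino acid starvation response.

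Promoter sequences are shown for 2 members that recur below, Slc3a1, the heavy subunit of the apical cystine transporter, and Slc7a11, a member with more RNA in the Ahnak KO ureter. RefSeq held promoter windows for 42 of the 60 members (build GRCm38.p6), with 63 start sites. The 250 bases before each start were searched on both strands for 2 motifs, and no member window held both. CAAAGTCCA, a site of the proximal tubule regulator HNF4, lay in 0.384% of all 32851 windows and, among members, in that of Slc3a1 alone. TGATGNAA, an ATF4 site, lay in 3.45% of windows and in those of Slc7a7 and Slc7a11. Capitals below mark the motif found in each window, which is written 5′ to 3′ on the strand of the gene. A match is a description of letters, not of binding.
Slc3a1 (chr17:85028097-85028346, plus strand, HNF4 motif 39 bases before the start): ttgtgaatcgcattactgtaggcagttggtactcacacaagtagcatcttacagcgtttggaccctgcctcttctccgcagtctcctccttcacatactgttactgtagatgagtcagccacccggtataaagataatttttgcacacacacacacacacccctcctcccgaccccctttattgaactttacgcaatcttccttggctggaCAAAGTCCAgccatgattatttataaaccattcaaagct
Slc7a11 (chr3:50443614-50443863, minus strand, ATF4 motifs 66 and 47 bases before the start, on opposite strands): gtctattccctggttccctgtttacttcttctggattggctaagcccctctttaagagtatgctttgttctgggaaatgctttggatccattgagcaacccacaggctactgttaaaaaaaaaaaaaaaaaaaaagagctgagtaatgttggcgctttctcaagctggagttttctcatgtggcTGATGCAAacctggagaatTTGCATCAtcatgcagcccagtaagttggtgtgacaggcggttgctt

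The libraries held 36410246 (Ahnak KO ureter) to 66095616 (WT kidney 1) estimated counts. Ahnak had 139 and 131 CPM (counts scaled by library size with TMM factors) in the Ahnak KO kidneys and 183 and 189 CPM in the WT kidneys. It had 634 CPM in the Ahnak KO ureter and 728 CPM in the WT ureter. Its level was thus lower in these KO libraries without being absent. The log2 difference (Ahnak KO minus WT) was -0.47 in kidney, not called at an adjusted p under 0.05 in edgeR, and -0.19 in ureter. The library Ahnak KO kidney 1 stood apart from the other 3 kidney libraries, with 2907 CPM of Xist against 0.355 to 0.394 CPM, and with 7755 genes at 0 against 6415 to 6706. The ribosomal transcript Rn45s took 8.06% of the counts of the Ahnak KO ureter and 0.496% to 0.632% of those of the other libraries. Summed markers of smooth muscle (8 genes) reached 7087 and 7874 CPM in the ureter libraries against 599 to 701 CPM in kidney, and summed urothelial markers (10 genes) 8436 and 7438 CPM against 90.3 to 99.9 CPM. Of the loop and distal tubule markers, which summed to 736 to 775 CPM in kidney, the ureter libraries held 0 and 1.48 CPM, and of the proximal tubule markers 341 and 241 CPM (317 and 221 CPM from Aqp1) against 1274 to 1623 CPM. A value of 0 in the table is an entry and not proof of absence, since 42% of the 995 genes with 10 to 30 counts in the WT ureter were listed at 0 in the Ahnak KO ureter. For this reason no fold is given against a tissue whose libraries are all listed at 0.

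General uptake transporters stood among the highest members in both tissues. On the FPKM scale, which divides by transcript length and so lets genes be compared, the neutral amino acid importer Slc38a2 had the highest level of any member. It stood at 58.5, 67.5, 65.4 and 63.1 FPKM in Ahnak KO kidneys 1 and 2 and WT kidneys 1 and 2, and at 61.0 and 72.3 FPKM in the Ahnak KO and WT ureters. The values of both tissues overlapped, and Slc38a2 alone made up 13.2% of the summed FPKM of the members in kidney and 19.6% in ureter. In kidney the next members by mean FPKM were the nucleobase carrier Slc43a3 (31.3), Slc38a10 (30.7), the taurine transporter Slc6a6 (28.5), the heavy subunit Slc3a2 (27.6), the glutamine transporter Slc1a5 (27.0) and the apical neutral amino acid transporter Slc6a18 (26.7). The ranges of these 6 genes over the kidney libraries overlapped, so their order is not resolved. In ureter Slc38a2 was followed by Slc1a5 (27.9), Slc3a2 (26.9), Slc43a3 (24.8) and Slc6a6 (22.7), again with overlapping values. The highest members of the remaining families were Slc7a6, with 15.9 FPKM in kidney and 21.2 FPKM in ureter, and the lysosomal proton-coupled transporter Slc36a1. A mean of at least 1 FPKM was reached by 38 members in kidney and 28 in ureter, while 4 members were listed at 0 in every kidney library and 14 in both ureter libraries.

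**Figure D1:**
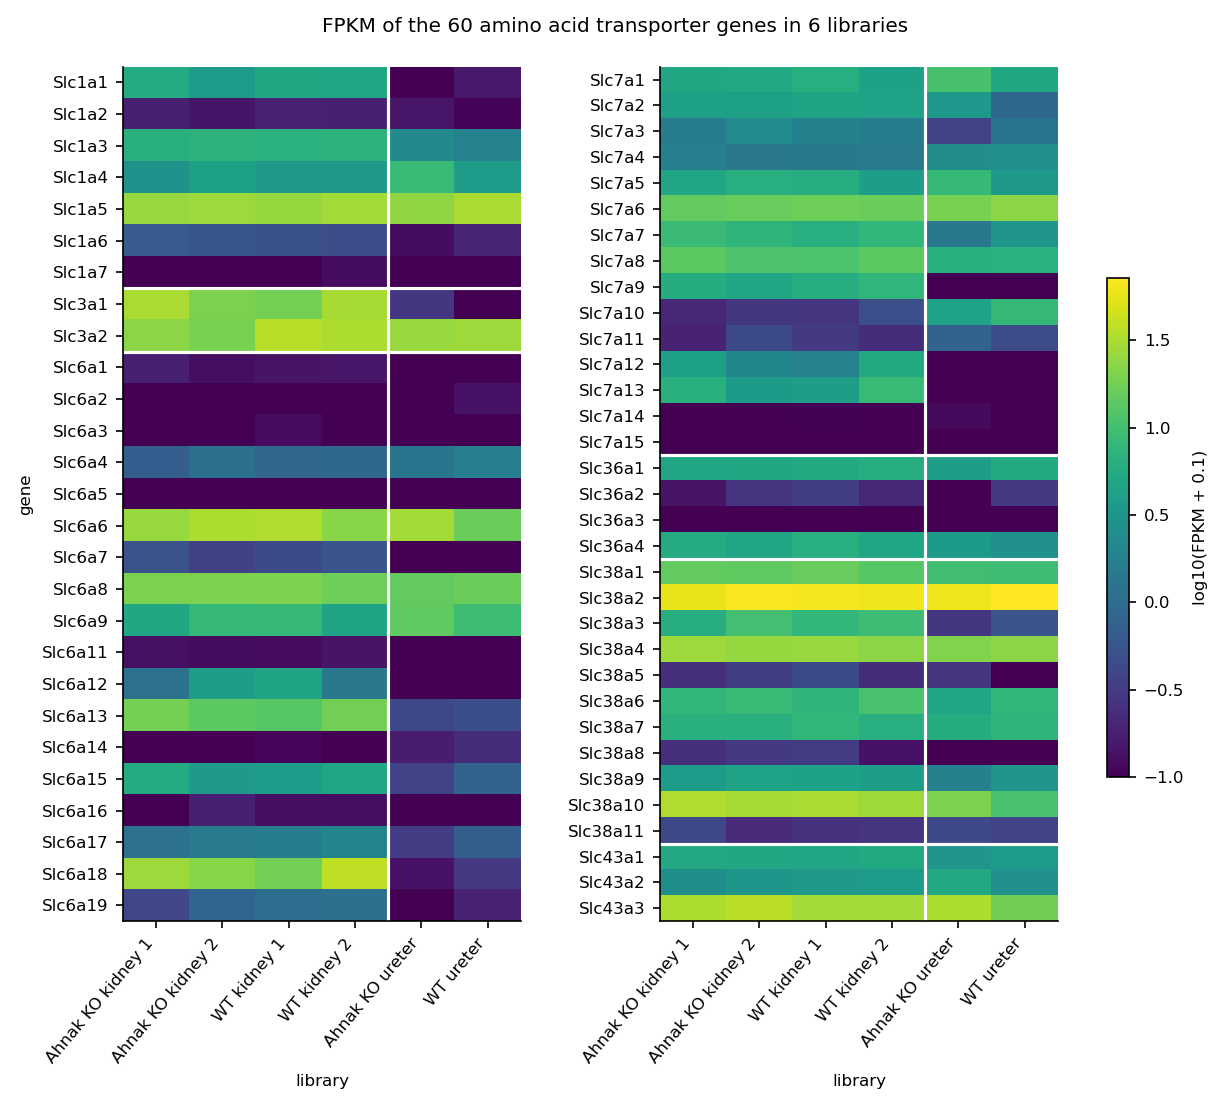
Levels of the 60 members (rows, grouped by family with white lines) in the 6 libraries (columns), coloured by log10(FPKM + 0.1). Slc38a2 is the brightest row in both tissues, and rows such as Slc3a1, Slc6a18, Slc7a9 and Slc7a13 are bright in the 4 kidney libraries and dark in both ureter libraries.

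Kidney and ureter were then compared across all 6 libraries, with genotype as a covariate. In the column headers the replicate 2 kidney and the ureter of each genotype carry the same code, whose meaning is not given, so they may share an origin, while the test treats the 6 libraries as independent. More transporters were higher in kidney than in ureter. Of the 52 members that passed the filter on low counts, 20 were higher in kidney and 10 were higher in ureter at an adjusted p under 0.05 (edgeR's quasi-likelihood test, Benjamini-Hochberg adjustment over 17557 genes). With the replicate 2 kidneys and both ureters alone, where the genotype term also stands for the shared code, the counts were 13 and 4. The same test called 22.3% of all genes higher in kidney and 20.3% higher in ureter, against 38.5% and 19.2% of the members tested. The median difference (kidney minus ureter, log2) was 0.59 over the members and 0.08 over all genes, or 0.52 and 0.06 where genes listed at 0 in a tissue were set to 3 counts. On log2(FPKM + 1) with limma the split of calls moved from 20 and 10 to 24 and 3 for members, and from 3912 and 3562 to 6227 and 2462 for all genes. A member that passed the filter only through the tissue in which it is high had to differ. Among those called higher in kidney this held for Slc6a7, Slc6a12, Slc7a9, Slc7a12, Slc7a13 and Slc38a8, listed at 0 in both ureters. The 8 members below the filter were Slc1a7, Slc6a2, Slc6a3, Slc6a5, Slc6a11, Slc7a14, Slc7a15 and Slc36a3, several of them transporters of neurons.

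The families differed in how their members split. In Slc6, 7 of 14 tested members were higher in kidney and 3 in ureter, with a median difference of 3.46, or 1.3 with genes at 0 set to 3 counts. In Slc7, 5 of 13 were higher in kidney and 4 in ureter (median 0.65), in Slc38, 5 of 11 and 1 (median 0.36), and in Slc1, 2 of 6 and 2 (median 1.27). Slc3 holds only the pair of heavy subunits, of which Slc3a1 was higher in kidney and Slc3a2 did not pass the test. Among the 3 tested members each of Slc36 and Slc43 none passed.

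**Figure D2:**
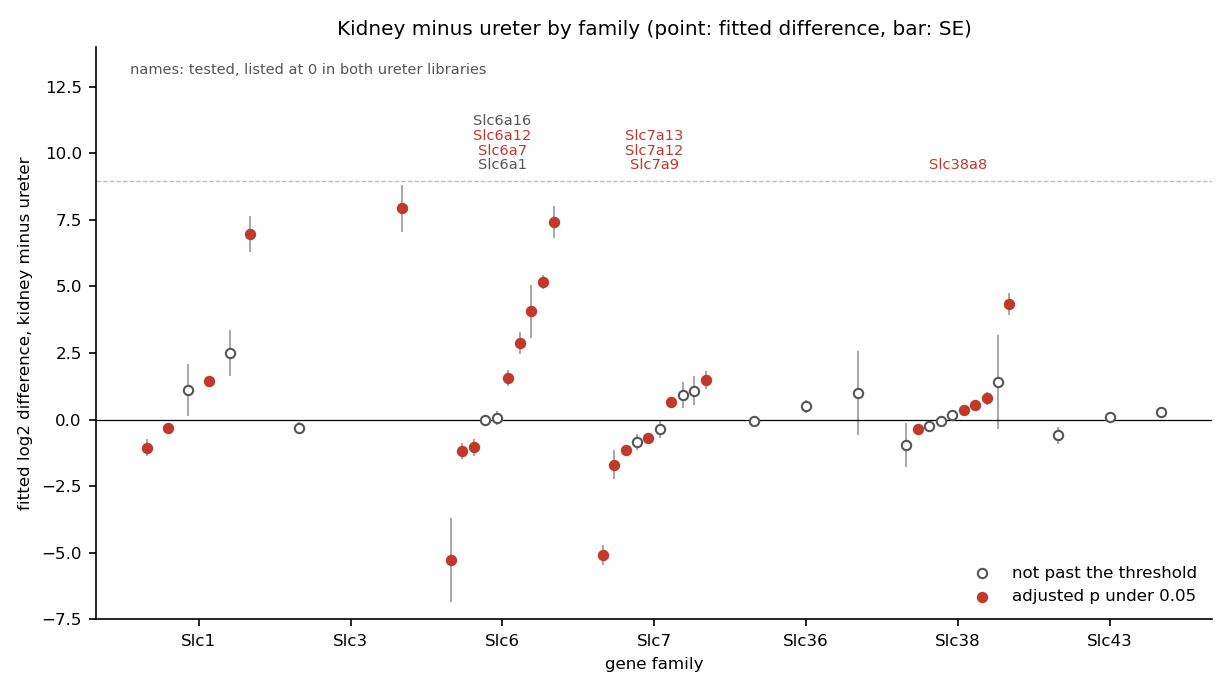
Fitted log2 difference (kidney minus ureter) of 44 members by family, with the standard error as a bar and red points for an adjusted p under 0.05. Names at the top are 8 tested members listed at 0 in both ureter libraries, with red for those that passed. The points reach above 7 in Slc3 and Slc6, below -5 in Slc6 and Slc7, and lie between -0.6 and 1.0 in Slc36 and Slc43.

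The apical transporters of the proximal tubule, apart from Slc36a2, were higher in kidney by wide margins. Of the 7 apical genes, 6 were higher in kidney and none in ureter, with a median difference of 7.42 on the log2 scale (6.83 with genes at 0 set to 3 counts). Their summed level was 227 and 167 CPM in the Ahnak KO kidneys and 149 and 273 CPM in the WT kidneys, against 0.805 and 2 CPM in the Ahnak KO and WT ureters. Among the 5 basolateral genes 3 were higher in kidney and none in ureter, with a median of 0.65, and their summed level overlapped between kidney (156 to 196 CPM) and ureter (172 and 136 CPM). The apical list was thus separated between the tissues by its sum and the basolateral list was not. The largest part of the basolateral sum in every library was Slc3a2, with 49.0 to 89.2 CPM in kidney and 88.4 and 77.3 CPM in ureter. Slc7a7, Slc7a8 and Slc38a3 were each higher in every kidney library than in either ureter library, and Slc43a2 overlapped. In bulk RNA, fewer tubule cells and less RNA per cell cannot be told apart, and the tubule markers given above moved with the apical genes.

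The apical cystine transporter consists of the heavy subunit Slc3a1 (rBAT) and the light subunit Slc7a9 (b0,+AT), and loss of either causes cystinuria. Slc3a1 had 68.6 and 44.0 CPM in Ahnak KO kidneys 1 and 2, 39.4 and 67.0 CPM in WT kidneys 1 and 2, 0.570 CPM in the Ahnak KO ureter and 0 in the WT ureter. Every kidney library lay far above both ureter libraries, and the kidney mean of 54.7 ± 15.2 CPM (SD, n = 4) was 192 times that of ureter, which rested on 17 counts (fitted difference 7.94, SE 0.881, adjusted p = 0.000721 in edgeR). Slc7a9 had 10.1, 8.10, 9.90 and 12.4 CPM in the same kidney libraries and was listed at 0 in both ureters (adjusted p = 8.86e-05 in edgeR). Its 4 kidney values lay close together, and those of Slc3a1 spread more widely. Slc7a13, another light subunit carried by Slc3a1 and found in the last stretch of the proximal tubule, had 13.4, 7.22, 7.81 and 17.4 CPM and was also listed at 0 in both ureters (adjusted p = 0.000681 in edgeR). All 3 subunit genes were therefore detected in every kidney library. Slc3a1 passed the test, while Slc7a9 and Slc7a13 passed the filter only through kidney and so had to differ.

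Slc6a18, which takes up neutral amino acids in the brush border, was the apical gene with the highest mean FPKM. It had 114 and 92.3 CPM in the Ahnak KO kidneys, 71.0 and 156 CPM in the WT kidneys, and 0.235 and 0.972 CPM in the Ahnak KO and WT ureters. Kidney lay 179 times above ureter in the mean (fitted difference 7.42, SE 0.592, adjusted p = 0.000178 in edgeR). Its relative Slc6a19, the transporter defective in Hartnup disorder, was far lower at this age, with a mean of 0.772 FPKM in kidney against 26.7 FPKM for Slc6a18. Slc6a19 had 0.725, 1.78, 2.30 and 2.43 CPM in the kidney libraries and 0 and 0.253 CPM in the ureters (fitted difference 4.06, adjusted p = 0.0187 in edgeR). Its call was lost without WT kidney 2, and its lowest kidney value was that of Ahnak KO kidney 1.

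The glutamate and cysteine transporter Slc1a1 had 20.1, 12.8, 17.9 and 17.2 CPM in the kidney libraries and 0 and 0.233 CPM in the ureters. The tissues did not overlap, and the mean was 146 times higher in kidney (fitted difference 6.98, SE 0.675, adjusted p = 0.000405 in edgeR). The seventh apical gene, the glycine and proline transporter Slc36a2, was low everywhere. It had 0.0989 to 0.562 CPM in kidney and 0 and 0.545 CPM in the ureters, which overlapped (adjusted p = 0.636 in edgeR).

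On the basolateral side the light subunits Slc7a7 and Slc7a8 and the glutamine transporter Slc38a3 were higher in kidney, and Slc3a2 and Slc43a2 did not pass the test. Slc38a3, which takes up glutamine for ammonia production, had 14.2, 24.4, 17.9 and 21.8 CPM in the kidney libraries and 0.604 and 1.34 CPM in the ureters. Kidney was 20.1 times higher in the mean (fitted difference 4.33, SE 0.408, adjusted p = 0.000361 in edgeR). Slc7a7, the dibasic amino acid exchanger lost in lysinuric protein intolerance, had 19.5, 16.2, 12.8 and 15.9 CPM in kidney and 3.92 and 7.55 CPM in ureter (fitted difference 1.49, adjusted p = 0.0118). Slc7a8, the neutral exchanger LAT2, had 42.2 to 53.5 CPM in kidney and 32.7 and 29.2 CPM in ureter (fitted difference 0.65, adjusted p = 0.0127), and this call was lost without either ureter library. Both light subunits were thus higher in all 4 kidney libraries than in either ureter library. Slc3a2 is their heavy subunit in all tissues and had 49.0 to 89.2 CPM in kidney and 88.4 and 77.3 CPM in ureter (adjusted p = 0.259). The uniporter Slc43a2 had 17.5 to 23.8 CPM in kidney and 45.9 and 20.7 CPM in ureter (adjusted p = 0.158), with the WT ureter inside the kidney range and the Ahnak KO ureter above it.

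**Figure D3:**
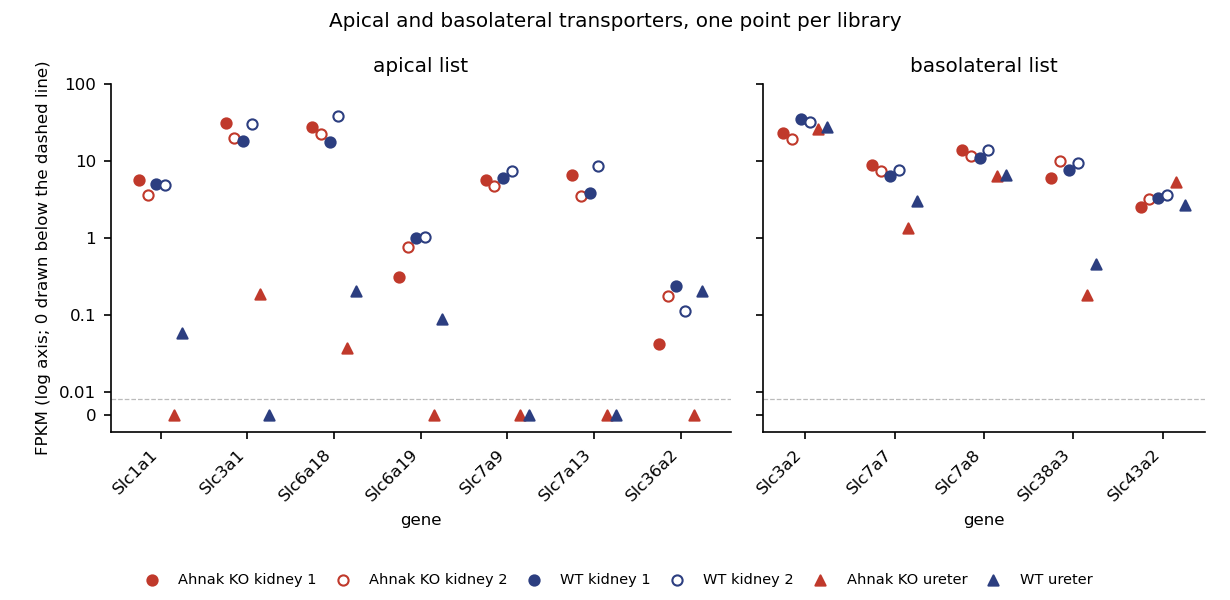
FPKM of the 7 apical and 5 basolateral genes in each library on a log axis, with circles for kidney, triangles for ureter, red for Ahnak KO, blue for WT, and values of 0 drawn below the dashed line. Apart from Slc36a2, the apical genes show a gap between circles and triangles, while Slc3a2 and Slc43a2 on the basolateral side show none.

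Outside these lists, 11 further members were higher in kidney. The osmolyte importer Slc6a12 takes up betaine and GABA and had 2.74, 8.67, 9.85 and 2.8 CPM in Ahnak KO kidneys 1 and 2 and WT kidneys 1 and 2, with 0 in both ureters (adjusted p = 0.00417 in edgeR). Its level differed about as much within each genotype as between any libraries. Slc6a13, a GABA and taurine transporter, had 26.8 to 37.3 CPM in kidney and 0.872 and 0.914 CPM in ureter, 36.2 times lower in the mean (fitted difference 5.17, SE 0.27, adjusted p = 3.61e-05). Slc7a12, a relative of the Slc7 light subunits, had 2.85 to 8.77 CPM in kidney and was listed at 0 in both ureters, as were the proline transporter Slc6a7 (0.845 to 1.51 CPM) and Slc38a8 (0.0984 to 0.548 CPM). Slc6a12, Slc7a12, Slc6a7 and Slc38a8 passed the filter only through kidney and so had to differ. Smaller differences were seen for the glutamate transporter Slc1a3 (1.45), the branched-chain amino acid transporter Slc6a15 (2.87), the vesicular transporter Slc6a17 (1.55), Slc38a1 (0.36), Slc38a9, which reports lysosomal arginine to mTORC1 (0.54), and Slc38a10 (0.79), each as a fitted log2 difference. The calls of Slc38a1, Slc38a8, Slc38a9 and Slc38a10 were lost when some single libraries were left out, and those of Slc38a1 and Slc38a8 were lost without any one of the 6.

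In ureter the 10 higher members were led by Slc7a10, the small neutral amino acid exchanger Asc-1, which is known from neurons and fat cells. It had 0.214 and 0.355 CPM in the Ahnak KO kidneys, 0.337 and 0.738 CPM in the WT kidneys, and 10.6 and 16.8 CPM in the Ahnak KO and WT ureters. All kidney values lay below 1 CPM and both ureter values above 10 CPM (fitted difference -5.09, SE 0.383, adjusted p = 0.000138 in edgeR). Summed markers of neurons and adrenal medulla (8 genes) were 2.57 to 4.92 CPM in kidney and 24.5 and 19.2 CPM in the Ahnak KO and WT ureters. Stmn2 alone gave 2.51 to 4.18 CPM in kidney and 19.0 and 12.5 CPM in the Ahnak KO and WT ureters. Of the 8 brown fat markers, Fabp4 had 323 to 419 CPM in kidney and 548 and 275 CPM in ureter, and Ppargc1a 36.3 to 56.5 CPM and 10.4 and 9.53 CPM. The other 6, among them Ucp1, Cidea and Adipoq, had at most 0.445 CPM in kidney and 5.7 CPM in ureter. Their part in the Slc7a10 level was not tested. Slc7a6, a light subunit of Slc3a2 that exchanges dibasic for neutral amino acids, had 53.2 to 59.1 CPM in kidney and 90.9 and 94.7 CPM in ureter (fitted difference -0.71, SE 0.0884, adjusted p = 0.00115). Slc7a4, a relative of the cationic amino acid transporters without a known substrate, had 4.07 to 4.95 CPM and 10.1 and 9.45 CPM (fitted difference -1.15, adjusted p = 0.00556).

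These 3 genes kept their call without any 1 library, and the other 7 did not. They were the serine transporter Slc1a4, the glutamine transporter Slc1a5, the serotonin transporter Slc6a4, the glycine transporter Slc6a9, the broad importer Slc6a14, the cystine and glutamate exchanger Slc7a11 and Slc38a2. The number of members higher in ureter was 5 without Ahnak KO kidney 1 or without WT kidney 1, 3 without WT kidney 2 and 3 without the Ahnak KO ureter. Slc1a4 had 10.8 to 15.6 CPM in kidney, 15.7 CPM in the WT ureter and 42.9 CPM in the Ahnak KO ureter, so its difference rested on a single ureter library. Slc7a11 had 0.791 to 3.04 CPM in kidney and 8.22 and 3.66 CPM in the Ahnak KO and WT ureters. Slc6a14 had at most 0.0421 CPM in kidney and 0.302 and 0.506 CPM in ureter, so it passed the filter only through ureter and had to differ. For Slc1a5 and Slc38a2 the fitted differences of -0.33 and -0.36 fell to -0.03 and -0.06 on log2(FPKM + 1).

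Grouped by their other roles, the members split differently again, with some genes in more than 1 list. Over all genes 22.3% were called higher in kidney and 20.3% higher in ureter. Of 10 transporters of growing or amino acid-starved cells, 1 (Slc38a1) was higher in kidney and 5 were higher in ureter (Slc1a4, Slc1a5, Slc6a9, Slc7a11 and Slc38a2), with a median difference of -0.35. Every one of these calls was lost when some single libraries were left out. Of 7 tested among 12 neurotransmitter transporters, 2 were higher in kidney (Slc1a3 and Slc6a13) and 2 in ureter (Slc6a4 and Slc6a9). Of 5 tested among 6 lysosomal or intracellular transporters, Slc38a9 and Slc6a17 were higher in kidney and none in ureter. Among the 4 carriers of osmolytes and creatine, Slc6a12 was higher in kidney, Slc38a2 in ureter, and Slc6a6 (133 to 195 CPM in kidney, 226 and 111 CPM in the Ahnak KO and WT ureters) and Slc6a8 (64.5 to 75.9 CPM, 73.8 and 70.9 CPM) did not pass.

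Within the kidney, some members typical of the tubule varied between libraries of the same genotype. Slc6a18, Slc3a1, Slc7a12, Slc7a13 and Slc6a13 were each higher in Ahnak KO kidney 1 and WT kidney 2 than in Ahnak KO kidney 2 and WT kidney 1. Slc7a9 of the apical and Slc7a8 of the basolateral list were so too, and the other basolateral genes were not. Slc1a1 and Slc6a19 followed neither order, and the apical gene Slc36a2 ran the other way (0.0989 and 0.262 CPM against 0.423 and 0.562 CPM). The osmolyte importer Slc6a12 ran the other way, as did the glycine transporter Slc6a9 (15.6 and 14.2 CPM against 25.3 and 24.5 CPM) and the large neutral amino acid transporter Slc7a5 (16.2 and 12.8 CPM against 21.3 and 20 CPM). Summed proximal tubule markers stood at 1623 and 1288 CPM in Ahnak KO kidneys 1 and 2 and at 1274 and 1532 CPM in WT kidneys 1 and 2. Of these 12 markers, 9 were higher in Ahnak KO kidney 1 and WT kidney 2 than in the other pair, as the first 5 genes were, whereas Kap (120, 245, 239 and 70 CPM) and Aqp1 (159, 167, 172 and 132 CPM) ran the other way. Summed as FPKM the list also ran the other way, with 637 and 721 in the Ahnak KO kidneys and 724 and 526 in the WT kidneys. The part of tubule content in the pattern was not tested. These genes were picked after their values were seen. Over 16481 kidney genes, deviations of the libraries numbered 1 from their genotype means correlated at -0.193 between Ahnak KO and WT. The share of all genes with this order is not given, so no excess among members or markers can be read from it.

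Ahnak KO and WT kidneys were compared next. No amino acid transporter was called at an adjusted p under 0.05 in either direction among the 50 members tested (edgeR's quasi-likelihood test), where over all 16481 genes 0% were called higher and 0.0121% lower. At an unadjusted p under 0.05 there was 1 member, Slc3a2 (2% of those tested), against 1.38% of all genes. Both KO libraries lay below both WT libraries in 7 members and above them in 3, and the same held for 13.3% and 12.8% of all genes, so the counts of members were near or below the background. The median difference (Ahnak KO minus WT, log2) was 0.00 over the members and over all genes. It was -0.29 over the 7 apical genes and -0.04 over the 5 basolateral genes, with none called in either list.

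Slc3a2 encodes CD98, the heavy subunit needed by basolateral and general light subunits. It had 58.4 and 49.0 CPM in the Ahnak KO kidneys and 89.2 and 81.4 CPM in the WT kidneys. Both KO libraries lay below both WT libraries, with a fitted difference of -0.67 (SE 0.136, unadjusted p = 0.00252), but the Benjamini-Hochberg adjusted p of edgeR was 1. The Wald test of DESeq2 gave an adjusted p of 0.00801, and over all settings tried the adjusted p ran from 0.00801 to 1. In the ureters Slc3a2 had 88.4 CPM in Ahnak KO and 77.3 CPM in WT, so the lower level was not seen there. None of its light subunits Slc7a5, Slc7a6, Slc7a7, Slc7a8, Slc7a10 and Slc7a11 reached an unadjusted p under 0.05 in kidney, with differences of 0.19, -0.10, 0.32, 0.05, -0.91 and 0.33.

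Slc3a2 lies on chromosome 19 (chr19:8706882-8723369, GRCm38.p6), 265915 bases from Ahnak (chr19:8989284-9076935). The genes around Ahnak were therefore described as well, a choice made after the value of Slc3a2 was seen. Of 44 tested genes within 1 Mb of Ahnak, 5 (11.4%) had both KO libraries below both WT libraries, and Slc3a2 was the 1 gene with an unadjusted p under 0.05. The other 4 of these were Gng3, Ttc9c, Slc22a8 and Nxf1, with differences of -0.91, -0.24, -0.20 and -0.12, of which that of Gng3, a gene at 0.363 to 1.21 CPM, was larger than that of Slc3a2. The median difference of the 44 genes was -0.04.

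The other members with separated genotypes in kidney did not pass at an unadjusted p of 0.05. Slc6a19 had 0.725 and 1.78 CPM in KO and 2.30 and 2.43 CPM in WT (difference -0.92, unadjusted p = 0.124 in edgeR). Slc43a3 had 79.6 and 91.1 CPM in KO and 70.7 and 70.9 CPM in WT (difference 0.27, unadjusted p = 0.0612 in edgeR). The remaining separated members were Slc6a17, Slc7a2, Slc7a6, Slc36a1 and Slc43a2 on the lower side and Slc1a6 and Slc7a7 on the higher side, with differences between -0.46 and 0.44.

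The Ahnak KO ureter and the WT ureter were 1 library each, so their ratios carry no test. Of 45 members that reached 10 counts in either ureter library, 10 (22.2%) were over 2-fold higher in the Ahnak KO ureter and 2 (4.44%) over 2-fold lower, on log2(CPM + 0.5). The shares over all 16117 genes compared were 4.5% and 5.75%. The median log2 ratio was -0.03 over the members and -0.02 over all genes, and 22 members were higher and 23 lower in the KO library. Scaled by library size alone the counts became 4 higher and 5 lower, with the median of all genes at -0.20. Shares over all genes are given for the TMM scaling only, so no excess of members can be read from the other scaling.

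On log2(CPM + 0.5) the largest ratio belonged to Slc7a2, a cationic amino acid transporter that brings in arginine, at 2.09. The ratios with intervals given here were taken from counts without the added 0.5. By that measure Slc1a2 stood higher, at 7.62 (2.82 to 25.8) from 22 and 5 counts in the Ahnak KO and WT ureters. Slc7a2 had 953 counts (32.0 CPM) in the Ahnak KO ureter and 364 counts (7.08 CPM) in the WT ureter, 4.54 times higher (95% interval 4.02 to 5.13 from an exact binomial interval, counting error only). Its kidney values were 31.2, 30.8, 33.3 and 32.2 CPM, so on CPM the Ahnak KO ureter lay at the kidney level and the WT ureter below it. On FPKM both ureters lay below every kidney library, with 3.28 and 0.837 FPKM in the Ahnak KO and WT ureters and 4.14 to 4.54 FPKM in kidney. The related arginine transporter Slc7a1 had 95 and 39.3 CPM in the Ahnak KO and WT ureters, a ratio of 2.43 (2.30 to 2.57). The third cationic transporter, Slc7a3, ran the other way, with 26 counts (0.872 CPM) in the Ahnak KO ureter and 163 counts (3.17 CPM) in the WT ureter, a ratio of 0.276 (0.175 to 0.420). The 3 cationic transporters thus did not move together.

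Among neutral amino acid transporters, Slc7a5, the light subunit LAT1 that imports leucine, had 35.9 and 12.9 CPM in the Ahnak KO and WT ureters, a ratio of 2.8 (2.54 to 3.09). Slc1a4 had 42.9 and 15.7 CPM, a ratio of 2.74 (2.51 to 3.0), and the uniporter Slc43a2 had 45.9 and 20.7 CPM, a ratio of 2.22 (2.05 to 2.41). For each of these 3 genes on CPM the WT ureter lay within or just above the kidney range and the Ahnak KO ureter above it. On FPKM the WT ureter of Slc7a5 (3.34) lay below the kidney range (3.83 to 6.28). Further ratios over 2 belonged to Slc7a11 at 2.26 (245 and 188 counts), Slc38a10 at 2.22, Slc43a3 at 2.19 and the taurine transporter Slc6a6 at 2.05. Slc3a1 (17 and 0 counts) was counted as higher too, at the edge of the limit. The vesicular transporter Slc6a17 had 56 and 226 counts, a ratio of 0.429, and was the other member over 2-fold lower on log2(CPM + 0.5). Without the added 0.5, Slc6a18 (0.243, 7 and 50 counts), Slc38a3 (0.452, 18 and 69 counts) and Slc6a15 (0.475, 40 and 146 counts) were over 2-fold lower as well. Of the 10 transporters of growing or starved cells, 4 were over 2-fold higher in the Ahnak KO ureter and 1 lower. Members with high levels in ureter were found on both sides of the limit, since Slc43a3, Slc6a6 and Slc38a10 were over 2-fold higher while the ratios were 0.977 for Slc38a2, 0.890 for Slc1a5, 1.04 for Slc38a4 and 1.05 for the creatine transporter Slc6a8.

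**Figure D4:**
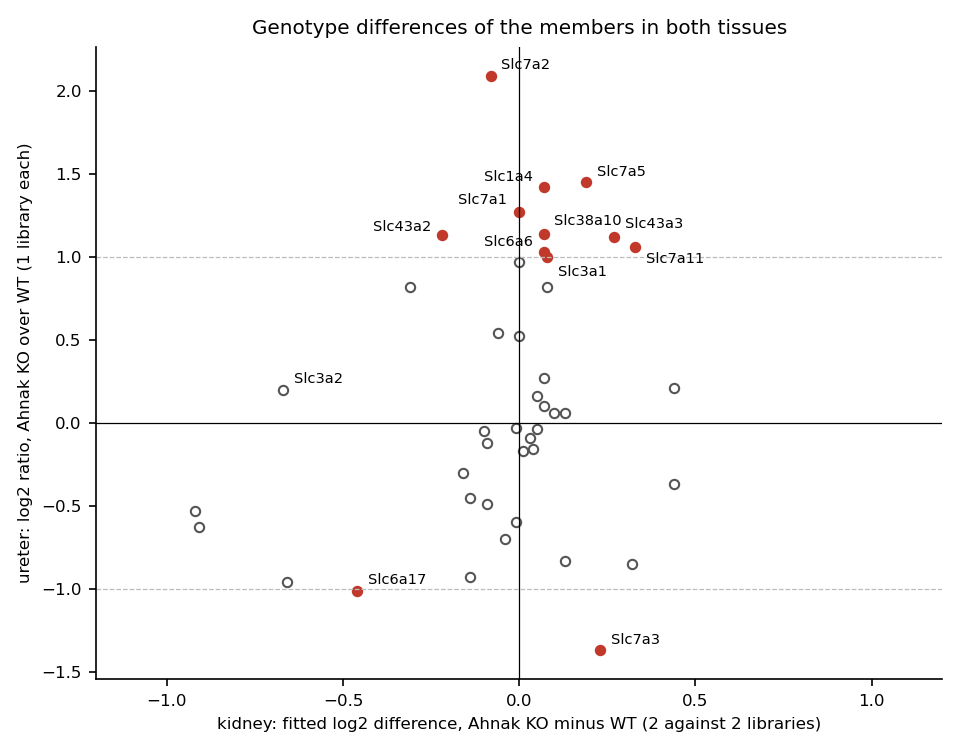
Genotype difference of 43 members in kidney (horizontal axis, fitted log2 difference from 2 against 2 libraries) and in ureter (vertical axis, log2 ratio of 1 library each), with dashed lines at 2-fold and red points beyond them. Slc7a2 stands highest on the ureter axis at 2.09 with a kidney difference of -0.08, and Slc3a2 lies at -0.67 in kidney and 0.20 in ureter.

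Marker sums also differed between the pair of ureter libraries. Summed macrophage markers (6 genes) were 272 and 184 CPM in the Ahnak KO and WT ureters, and all 6 genes were higher in the KO library. Skeletal and cardiac muscle markers (10 genes) summed to 219 and 458 CPM, and red blood cell markers (7 genes) 665 and 1404 CPM. Smooth muscle markers (7087 and 7874 CPM) and urothelial markers (8436 and 7438 CPM) differed less. The brown fat list summed to 566 and 288 CPM, but Fabp4 alone gave 548 and 275 CPM of this, while Cox8b (1.01 and 2.78 CPM), Cidea (0.403 and 1.01 CPM) and Ucp1 (0 and 0.194 CPM) ran the other way. The part of these differences and of Rn45s in the transporter ratios was not tested, and cell makeup and genotype cannot be told apart in 1 library each.

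Whether the genotype difference itself differed between ureter and kidney was tested with an interaction term over the 6 libraries, in which the spread comes from the kidney pairs alone. No member passed at an adjusted p under 0.05 in edgeR, while 0.0513% of all genes passed with a higher and 0.057% with a lower difference in ureter. At an unadjusted p under 0.05 there were 14 of 52 members (26.9%) against 12.4% of all genes. Slc7a2 came nearest, with an interaction of 2.25 on the log2 scale (SE 0.235, adjusted p = 0.0579). It passed without Ahnak KO kidney 1 (adjusted p = 0.0253) and without Ahnak KO kidney 2 (adjusted p = 0.0172), but not without either WT kidney, and over all settings its adjusted p ran from 1.75e-10 with DESeq2 to 0.183. The Wald test of DESeq2 called 6 of 52 members, Slc3a1, Slc7a1, Slc7a2, Slc38a10, Slc43a2 and Slc43a3, all with a higher difference in ureter. Of all 17557 genes the same setting called 198 with a higher and 278 with a lower difference in ureter. For Slc3a1 that call rested on 17 counts in the Ahnak KO ureter.

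Genes that work with the transporters were read from lists of their own. Among partners and transporters outside the symbol rule, 6 of 7 were higher in kidney and none in ureter. They included Tmem27 (collectrin), which the neutral transporters of the brush border need, at 98.1 to 159 CPM in kidney and 0 in both ureters, and the imino acid transporter Slc6a20b at 5.82 to 13.1 CPM and 0. The seventh, the basolateral aromatic amino acid transporter Slc16a10, did not pass (difference 0.23, adjusted p = 0.255 in edgeR). Of 8 brush border peptidases, which cut peptides into the amino acids taken up, 7 were higher in kidney, such as Ggt1 (193 to 224 CPM against 0 in both ureters), and 1, Dpep1, was higher in ureter. None of these genes was called between genotypes in kidney.

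The proximal tubule regulator Hnf4a had 98.2 to 110 CPM in kidney and 1.21 and 1.67 CPM in ureter (fitted difference 6.14, adjusted p = 7.22e-06 in edgeR). Its relative Hnf4g was higher in kidney too, Maf was higher in ureter, and Ppara did not pass. For the amino acid stress response, 3 of 12 genes were higher in kidney and 4 in ureter, and no gene was called between genotypes in kidney. In the ureters the asparagine synthetase gene Asns, a known ATF4 target, had 50.5 and 19.0 CPM in Ahnak KO and WT (log2 ratio 1.39), as Slc7a11 and Slc7a5 were also over 2-fold higher there. Of the 11 genes of the stress list compared in ureter, 6 were higher and 5 lower in the KO library, with a median log2 ratio of 0.02. Past 2-fold, 1 was higher and 2 were lower. The log2 ratios of Psat1, Phgdh and Psph were 0.57, 0.37 and 0.32, and those of Atf4, Trib3 and Ddit3 were -0.19, 0.00 and -1.07. The cause of these ratios was not tested. Among 13 genes of amino acid sensing by mTORC1, 3 were higher in kidney and 2 in ureter, and no ratio between the ureter libraries exceeded 2-fold.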

How the data were processed

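Per the labels and the methods, mRNA of PN1 mouse kidney and ureter was sequenced with a stranded kit. The authors deposited, for each of 24532 genes and 6 libraries, an estimated count given as a whole number, and FPKM, their value scaled by transcript length and library size. The methods name Cutadapt, STAR and Cufflinks with GRCm39, while the submitters' processing notes name Trimmomatic 0.38, HISAT2 2.1.0 and StringTie 1.3.4b and the table is named for mm10, so which made the values is not settled. The 6 TPM columns were not used. Titles of both ureter samples say kidney, but their source labels and column headers say ureter, which was used.

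Estimated counts were tested with edgeR 4.0.16 (TMM factors, filterByExpr, quasi-likelihood F test, Benjamini-Hochberg adjustment over all genes tested) in R 4.3.3. Residual degrees of freedom were 3 for kidney against ureter (genotype as covariate), and 2 for Ahnak KO against WT kidney and for the interaction. The standard error is the absolute log2 difference divided by the square root of F, an approximation. For the pair of ureter libraries, log2(CPM + 0.5) was subtracted after TMM scaling of that pair, for genes reaching 10 counts. Ratios printed as folds, with exact binomial 95% intervals, came from the counts without the added 0.5. In single libraries 3 counts equalled 0.0421 to 0.101 CPM, and intervals cover counting error only. Alternatives used DESeq2 1.42.0, limma 3.58.1 on log2(FPKM + 1) and log2(FPKM + 0.1), no filter, other models and leaving out libraries. The code was tested on simulated data with less spread between libraries than in the main fits, so no error rates are taken from it. The summaries used Python 3.11.15 with pandas 2.3.3 and scipy 1.17.1.

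The members and gene lists were chosen with earlier results of these data known. Named by rule were all apical and basolateral genes, per family up to 2 genes with the largest called difference in each direction and the highest mean FPKM in each tissue, members with an unadjusted p under 0.05 in kidney, and up to 10 with a ureter ratio over 2 and at least 50 counts. Further genes were added with their values in view. The symbols Cltrn, Samtor, Castor1 and Castor2 were not among the table's symbols. In kidney, deviations of the libraries numbered 1 from their genotype means correlated at -0.193 over 16481 genes, so the replicate numbers were not taken to pair the libraries. Promoter sequences are from RefSeq (GRCm38.p6). Some genes and motifs are not reported here.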

Additional observations from a re-analysis of the deposited data

How the results depend on the processing

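Under 15 alternatives, 13 of the 20 members higher in kidney and 3 of the 10 higher in ureter stayed called, and no call changed direction. The count higher in kidney ran from 15 to 18 with 1 library left out and was 13 with the replicate 2 kidneys and both ureters, a choice made after seeing the data. The count higher in ureter ran from 3 to 8 with 1 library left out and was 4 with WT libraries only, 4 with the replicate 2 kidneys and both ureters, 4 with limma on log2(FPKM + 0.1) and 3 with limma on log2(FPKM + 1). FPKM moved the median difference of all genes from 0.08 to 0.35 and 0.22, and the share of all calls higher in kidney from 52.3% to 71.5% and 71.7%.

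Between genotypes in kidney no member was called except 1 lower with the DESeq2 Wald test. With a replicate block 0 members and 0 of all genes were called in each direction, and the crossed pairing, added after seeing the data, gave 0 members and 1 of all genes. The counts over all genes moved from 0 higher and 2 lower to at most 24 and 63 with a library left out, that being Ahnak KO kidney 2. For the interaction, the DESeq2 Wald test called 6 members, all higher in ureter, against 198 higher and 278 lower of all 17557 genes. Between the ureter libraries, the members over 2-fold higher were 4 by library size alone and 6 on FPKM + 0.1, and those lower were 5 and 6, with 10 lower on log2(CPM + 0.1), and 12 were higher there. Shares over all genes are not given for these settings, so no excess of members can be read from them. Ratios of Slc7a2, Slc7a5, Slc1a4, Slc7a1 and Slc7a3 stayed over 2-fold in all 5 alternatives. With 1 ureter library per genotype no ureter ratio has a replicate check, and low members are limited by entries of 0. The cause of these shifts was not tested.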
